A study of Mus musculus with 14 samples.

Results

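The 7 GABA-A receptor subunit genes Gabra2, Gabra3, Gabra6, Gabrb1, Gabrb2, Gabrg1 and Gabrd were examined, 7 of the 24100 genes in the deposited count table. They were chosen by name, to set subunits of Purkinje cell receptors beside those of granule cells and other cerebellar cells, and their rows were found by Entrez gene number. RNA sequencing libraries came from mouse cerebellum at postnatal day 21, from wild-type (WT) mice and mice lacking Astn2 (KO), which were littermates. Mice of both genotypes carried Tg(Pcp2-L10a-EGFP), a transgene in which the Pcp2 promoter drives an EGFP-tagged ribosomal protein L10a in Purkinje cells. Translating ribosome affinity purification (TRAP) pulls down the tagged ribosomes with their RNA. Input is RNA from part of the same kind of homogenate, set aside before the pull-down, and so comes from all cerebellar cells. The 14 libraries were 4 input WT, 3 input KO, 3 TRAP WT and 4 TRAP KO. Every comparison of TRAP with input therefore compares ribosome-bound RNA with total homogenate RNA as well as Purkinje cells with whole cerebellum, and these cannot be told apart.

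GABA-A receptors are chloride channels opened by the inhibitory transmitter GABA, built of several subunits, usually alpha and beta subunits with a gamma or a delta subunit. The alpha subunit shapes the response to GABA and to benzodiazepines, gamma subunits are typical of receptors at synapses, and the delta subunit is typical of receptors outside synapses that carry a steady current. In the cerebellum the alpha6 subunit is known as a mark of granule cells, where it also pairs with delta, whereas the beta2 subunit is known from receptors of both granule and Purkinje cells.

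The libraries held between 18.8 and 54.2 M counts each (M, 1e6). A level is stated in CPM, the count of a gene per 1e6 counts of its library after TMM scaling. Astn2 itself was at 88.8 to 104 CPM in the input WT libraries and 0.729 to 0.968 CPM in the input KO libraries, and at 117 to 146 CPM in TRAP WT and 1.06 to 2.11 CPM in TRAP KO. All 10 Purkinje marker genes were higher in TRAP (median log2 fold change 3.24 in WT and 3.12 in KO), and all 10 granule cell, all 10 Bergmann glia and astrocyte and all 8 inhibitory interneuron marker genes were lower in both genotypes. Granule cell genes were reduced but not absent in TRAP: their summed level was 973 to 1468 CPM in TRAP WT and 799 to 1529 CPM in TRAP KO, against 5317 to 5813 CPM in input. The library TRAP WT replicate 3 had the lowest summed granule cell level of its group and the lowest level of 5 of the 7 subunit genes, so the fold changes of the 7 genes in WT, their ratios and their shares are also given without it.

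The subunit genes lie in clusters. Positions are from the RefSeq gene table of GRCm38.p6, and strands and exons from GENCODE M21. Gabra6 (chromosome 11, 42306437 to 42321072, minus strand) and Gabrb2 (chromosome 11, 42419515 to 42632591, plus strand) are neighbours. Their starts are 98.4 kb apart, and they point away from each other. Gabrg1 (chromosome 5, 70751047 to 70842617, minus strand), Gabra2 (chromosome 5, 70958392 to 71095849, minus strand) and Gabrb1 (chromosome 5, 71657921 to 72149572, plus strand) form a second cluster with Gabra4. Gabra3 is on chromosome X (72432676 to 72656919, minus strand) and Gabrd on chromosome 4 (155384979 to 155398098, minus strand). The exons of Gabrb1 and Gabra4, on opposite strands, share 46 bases, 0.332% of the exon bases of Gabrb1.

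Since Gabra6 and Gabrb2 are close neighbours that differed in how much of their RNA was found in TRAP, their RefSeq promoter windows (GRCm38.p6) are shown, 250 bases before to 50 after a transcript start. Of the 7 genes, 6 had windows in that table, 10 windows in all. The window of Gabra6 is chr11:42321023-42321322 on the minus strand, and that of the first listed Gabrb2 start is chr11:42420190-42420489 on the plus strand. This Gabrb2 window lies downstream of the gene start at 42419515 that was used for the distance of 98.4 kb. Capitals mark matches to the motifs searched on both strands.
Gabra6: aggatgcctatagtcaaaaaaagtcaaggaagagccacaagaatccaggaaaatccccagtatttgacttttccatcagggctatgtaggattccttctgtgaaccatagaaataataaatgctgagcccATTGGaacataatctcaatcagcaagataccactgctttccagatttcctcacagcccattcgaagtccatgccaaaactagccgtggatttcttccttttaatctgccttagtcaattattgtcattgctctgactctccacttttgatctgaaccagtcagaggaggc
Gabrb2: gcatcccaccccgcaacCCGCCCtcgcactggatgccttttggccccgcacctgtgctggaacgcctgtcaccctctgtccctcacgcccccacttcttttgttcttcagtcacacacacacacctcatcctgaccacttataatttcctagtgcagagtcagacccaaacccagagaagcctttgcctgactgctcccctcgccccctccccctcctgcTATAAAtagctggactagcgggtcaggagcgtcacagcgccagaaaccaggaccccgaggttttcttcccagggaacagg
The motifs searched were the TATA box (TATAAA), the CCAAT box (CCAAT), the GC box (GGGCGG) and an E-box (CAGCTG). The capitals in the Gabra6 window are a CCAAT box on the other strand, at base 131 of the window. In the Gabrb2 window they are a GC box on the other strand at base 18 and a TATA box at base 221. Among 32851 promoter windows of this length, 13.6% held the TATA box, 37.4% the CCAAT box, 35.7% the GC box and 16.3% the E-box. A CCAAT box was found in a window of 5 of the 6 genes, a TATA box in windows of Gabrb2 and Gabra3, and a GC box in windows of Gabrb2 and Gabra2. Counted by window, as those shares are, the CCAAT box was in 6 of the 10 windows, the TATA box in 3, the GC box in 2 and the E-box in 0. The 2 Gabra3 windows overlap and hold the same sites. The Gabra6 window had 2 CpG dinucleotides and this Gabrb2 window 11, against a median of 7 over the same 32851 windows, which do not cover every chromosome. These matches describe the letters only, and binding was not measured.

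The first comparison, TRAP with input, addresses which subunit genes have RNA on Purkinje cell ribosomes. All 7 were lower in TRAP than in input in both genotypes, but by very different amounts. Gabrb2, a beta subunit gene, kept 64.4% of its input level in WT and 61.7% in KO. Gabra6 kept 18.4% and 19.7%, Gabrd kept 29.9% and 35.6%, and the 4 genes with low levels, Gabra2, Gabra3, Gabrb1 and Gabrg1, kept 12.8% to 30.2%. By edgeR's quasi-likelihood test, 7 of 7 passed the adjusted threshold of 0.05 as lower in WT, where 38.5% of all 16042 genes tested did so, and 7 of 7 in KO, where 39.6% did. Lower in both genotypes were all 7 and 35.6% of all genes. For each of the 7, the highest TRAP library lay below the lowest input library, as it did for 32.7% of all genes. The median log2 fold change of the 7 was -2.45 in WT and -2.06 in KO, beside -0.088 and -0.11 for all genes tested. In tissue RNA of this kind, fewer cells of a type and less RNA per cell cannot be told apart.

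**Figure D1:**
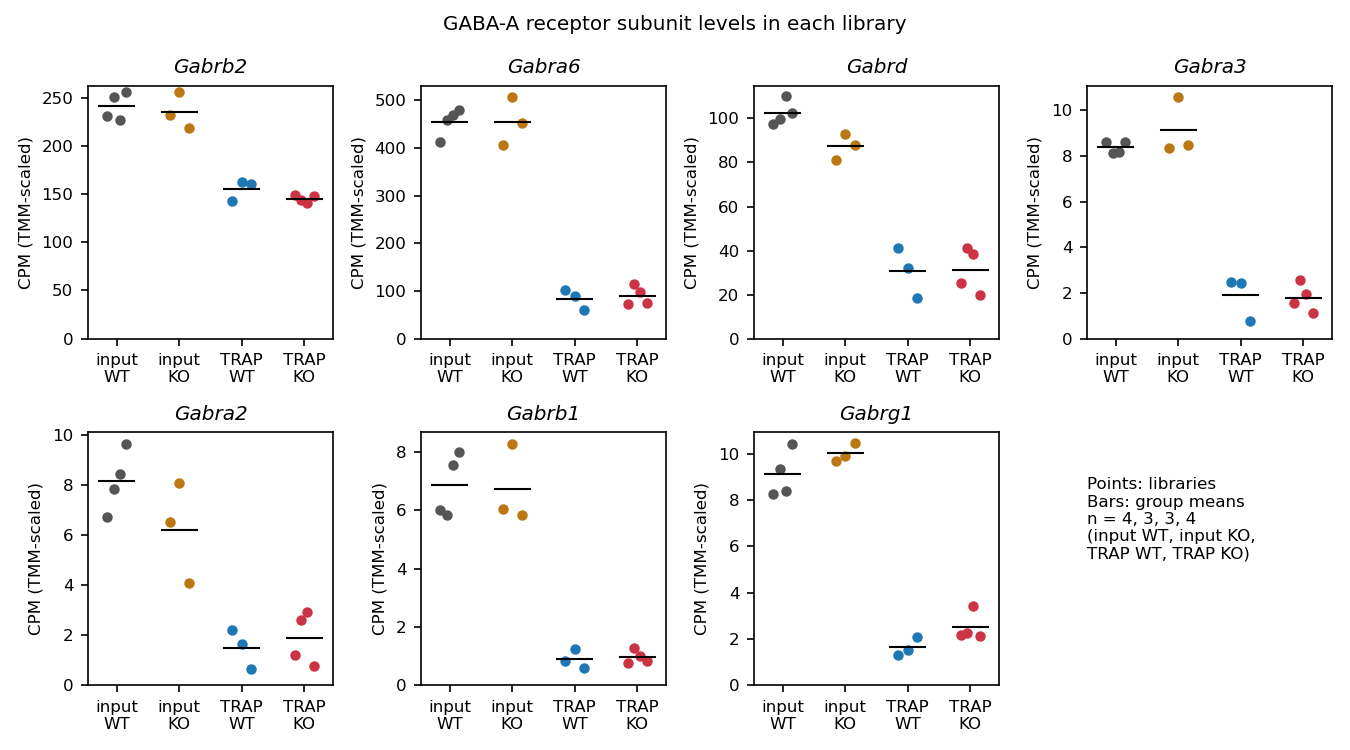
Level of each of the 7 subunit genes in every library, in CPM with TMM scaling (linear axes from 0, a scale for each gene), by group; points are libraries and bars are group means. All TRAP libraries lie below all input libraries for each gene, and the TRAP mean of Gabrb2 is the highest of the 7 as a share of its input mean (64.4% in WT and 61.7% in KO).

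Among the alpha subunits, Gabra6, the granule cell subunit, was the most abundant. It was at 412, 458, 469 and 479 CPM in the input WT libraries and 406, 508 and 452 CPM in the input KO libraries. In TRAP it was at 102, 88.9 and 59.7 CPM in WT and 71.7, 114, 98.7 and 74.6 CPM in KO. The fractions were far apart in both genotypes, and in relative terms the TRAP libraries spread more widely than the input libraries. The log2 fold change was -2.46 ± 0.21 (SE; adjusted p = 1.18e-07, edgeR) in WT and -2.33 ± 0.19 (adjusted p = 1.11e-07) in KO, and -2.29 in WT without TRAP WT replicate 3.

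Gabra3, which in the cerebellum is known from Golgi and other interneurons, was at 8.60, 8.16, 8.16 and 8.64 CPM in input WT and 8.37, 10.6 and 8.49 CPM in input KO. In TRAP WT it was at 2.46, 2.42 and 0.788 CPM, and in TRAP KO at 1.56, 2.56, 1.94 and 1.11 CPM. The groups did not overlap, although these TRAP values rest on 19 to 73 counts a library. The log2 fold change was -2.23 ± 0.31 (adjusted p = 2.00e-05, edgeR) in WT and -2.32 ± 0.29 (adjusted p = 6.27e-06) in KO. Without TRAP WT replicate 3, the value in WT was -1.85.

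Gabra2, an alpha subunit gene known from Bergmann glia in this tissue, had the widest relative spread among the TRAP libraries. It was at 6.72, 7.83, 8.43 and 9.64 CPM in input WT and 6.5, 8.06 and 4.06 CPM in input KO. In TRAP it was at 2.19, 1.63 and 0.622 CPM in WT and 1.21, 2.60, 2.93 and 0.752 CPM in KO, from 15 to 74 counts. The TRAP libraries were below the input libraries, but input KO replicate 3 was well below the other input libraries. The log2 fold change was -2.58 ± 0.46 (adjusted p = 1.54e-04, edgeR) in WT and -1.67 ± 0.41 (adjusted p = 0.00206) in KO, and -2.20 in WT without TRAP WT replicate 3.

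The beta subunit genes stood at opposite ends. Gabrb2 was at 231, 251, 227 and 257 CPM in input WT and 232, 257 and 219 CPM in input KO. In TRAP it was at 143, 163 and 161 CPM in WT and 149, 145, 141 and 148 CPM in KO. Its TRAP libraries lay close together, with a coefficient of variation of 7.09% in WT and 2.51% in KO, against 26.0% and 22.6% for Gabra6. The log2 fold change was -0.63 ± 0.098 (adjusted p = 4.99e-05, edgeR) in WT and -0.70 ± 0.097 (adjusted p = 1.84e-05) in KO. It was -0.68 in WT without TRAP WT replicate 3. Gabrb1 was at 6.02, 5.85, 7.57 and 8.0 CPM in input WT and 6.06, 8.29 and 5.85 CPM in input KO. In TRAP it was at 0.820, 1.24 and 0.581 CPM in WT and 0.741, 1.26, 0.997 and 0.841 CPM in KO, from 12 to 36 counts, all below input. Its log2 fold change was the lowest of the 7 genes in both genotypes, -2.98 ± 0.28 (adjusted p = 4.32e-07, edgeR) in WT and -2.79 ± 0.25 (adjusted p = 2.93e-07) in KO. Without TRAP WT replicate 3, the value of Gabrb1 in WT was -2.74.

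Gabrg1, a gamma subunit gene known from Bergmann glia, was at 8.27, 9.34, 8.39 and 10.4 CPM in input WT and 9.68, 9.91 and 10.5 CPM in input KO. In TRAP it was at 1.30, 1.52 and 2.07 CPM in WT and 2.18, 2.25, 3.40 and 2.12 CPM in KO. All TRAP libraries were below all input libraries. The log2 fold change was -2.45 ± 0.19 (adjusted p = 6.11e-08, edgeR) in WT and -2.06 ± 0.17 (adjusted p = 1.18e-07) in KO. Gabrg1 was highest, not lowest, in TRAP WT replicate 3, and without that library its value in WT was -2.67.

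Gabrd, which encodes the delta subunit of receptors outside synapses, was at 97.5, 99.6, 110.2 and 102 CPM in input WT and 81.2, 92.9 and 88.1 CPM in input KO. In TRAP it was at 41.1, 32.1 and 18.6 CPM in WT and 25.2, 41.1, 38.2 and 19.8 CPM in KO. The fractions did not overlap, and the TRAP libraries of each genotype spread over about the same range. The log2 fold change was -1.79 ± 0.26 (adjusted p = 2.81e-05, edgeR) in WT and -1.47 ± 0.24 (adjusted p = 9.56e-05) in KO, and -1.54 in WT without TRAP WT replicate 3.

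These fold changes depend on how libraries are scaled, since Purkinje genes take a large share of the TRAP libraries. With library totals in place of TMM factors, the median of all genes was -0.91 in WT in place of -0.088, and -0.85 in KO in place of -0.11. The 7 genes remained lower and past the threshold, with Gabrb2 at -1.46 and -1.44 and the others between -2.19 and -3.81. Gabrb2 stayed the nearest of the 7 to that median and Gabrb1 the farthest below it.

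**Figure D2:**
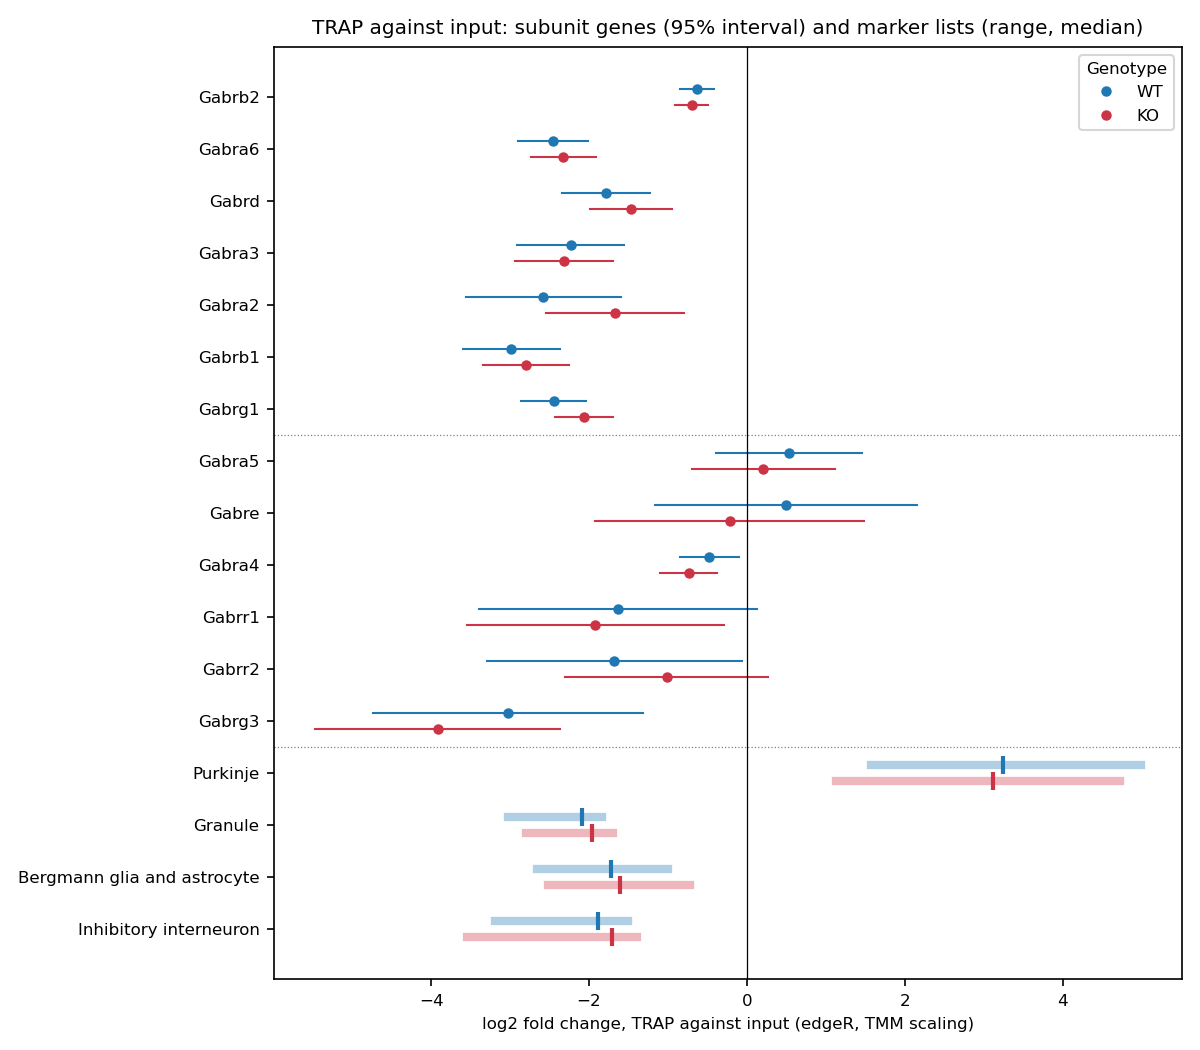
Log2 fold change of TRAP against input (horizontal axis, edgeR with TMM scaling) in WT and KO for the 7 subunit genes, 6 other subunit genes and 4 marker lists; points and thin lines are estimates with 95% intervals, thick lines the range over a list with its median. Gabrb2 lies nearest to 0 among the 7, and the other 6 of the 7 lie between -1.47 and -2.98.

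The proportions among subunits within a library do not depend on scaling. Gabra6 had 1.88 counts for each Gabrb2 count in input WT and 1.93 in input KO, but 0.525 in TRAP WT and 0.605 in TRAP KO (geometric means). So the gene with more counts was Gabra6 in every input library and Gabrb2 in every TRAP library. The log2 ratio to Gabrb2 was lower in TRAP than in input for each of the other 6 genes, averaged over the genotypes. The difference was -2.22 for Gabrb1, -1.76 for Gabra6, -1.68 for Gabra3, -1.59 for Gabrg1, -1.57 for Gabra2 and -1.02 for Gabrd. In an exact two-sided permutation test of fraction within genotype (1225 splits), p was 0.000816, the smallest that test can give, for all but Gabra2, which had p = 0.00163. Adjusted over the 6 ratios, p was 0.00098 for 5 of them and 0.00163 for Gabra2. With the replicate number as a block, the Gabra2 ratio lost its call (-1.35, adjusted p = 0.0625, exact sign permutation). It was lower in TRAP in 5 of 6 pairs of same-numbered libraries. By that test the other 5 ratios kept their calls with adjusted p = 0.0375. Their unadjusted p of 0.03125 is the smallest that 64 sign patterns can give. Without TRAP WT replicate 3, the differences were -2.07 for Gabrb1, -1.63 for Gabra6, -1.40 for Gabra3, -1.67 for Gabrg1, -1.29 for Gabra2 and -0.85 for Gabrd, with adjusted p by the exact permutation test of 0.00381 for Gabra2 and 0.00229 for the others. The ratio of Gabrd to Gabrb2 was 0.424 in input WT, 0.371 in input KO, 0.187 in TRAP WT and 0.205 in TRAP KO.

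**Figure D3:**
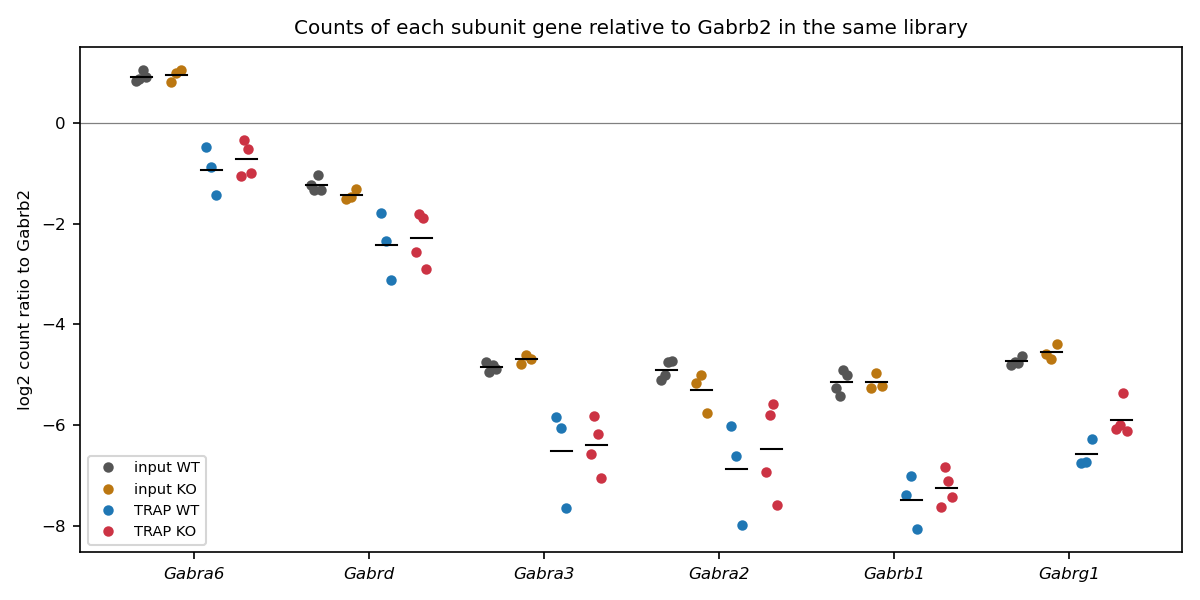
Log2 ratio of the counts of each of 6 subunit genes to Gabrb2 in the same library (vertical axis), by group; points are libraries and bars are group means. For Gabra6 every input library lies above 0 and every TRAP library below 0.

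Per kilobase of the longest annotated transcript, levels can be compared between genes. In input WT the order was Gabra6 at 184 ± 11.9 CPM per kb (SD, n = 4), Gabrb2 at 60.5 ± 3.63, Gabrd at 37.8 ± 2.05, Gabra3 at 2.29 ± 0.072, Gabrg1 at 1.91 ± 0.21, Gabra2 at 1.39 ± 0.21 and Gabrb1 at 0.499 ± 0.079. The order was the same in input KO. In TRAP WT, Gabrb2 was at 39.0 ± 2.76 CPM per kb (n = 3) and Gabra6 at 33.9 ± 8.80, and in TRAP KO at 36.5 ± 0.917 and 36.4 ± 8.23 (n = 4). With this length, these neighbours did not differ beyond their spread in TRAP, and without TRAP WT replicate 3 the means were 38.3 for Gabrb2 and 38.7 for Gabra6. The comparison depends on the transcript length used. With the median transcript length, which is shorter for Gabrb2 (1539 bases in place of 3989) and almost the same for Gabra6 (2436 in place of 2467), Gabrb2 was well above Gabra6 in TRAP, at 101 ± 7.16 against 34.3 ± 8.91 CPM per kb in WT and 94.6 ± 2.38 against 36.9 ± 8.33 in KO. In input Gabra6 stayed first with either length. Of the summed level of the 7 genes per kilobase of the longest transcript, Gabrb2 made up 21% ± 1.07 in input WT and 46.5% ± 8.89 in TRAP WT, and 21% ± 1.36 and 43.2% ± 6.57 in KO. The share of Gabra6 was 63.8% ± 0.851 in input WT, 65.4% ± 1.49 in input KO, 39.2% ± 5.36 in TRAP WT and 42.1% ± 3.91 in TRAP KO. Without TRAP WT replicate 3, the shares in TRAP WT were 41.8% for Gabrb2 and 42.1% for Gabra6. With the median transcript length, the share of Gabrb2 was 38.4% ± 1.56 in input WT, 38.6% ± 1.86 in input KO, 66.1% ± 8.12 in TRAP WT and 63.3% ± 6.44 in TRAP KO. That of Gabra6 was then 45.6% ± 1.08 in input WT, 47.0% ± 1.80 in input KO, 22.1% ± 4.46 in TRAP WT and 24.3% ± 3.49 in TRAP KO. With both lengths the share of Gabrb2 was higher, and that of Gabra6 lower, in TRAP than in input. The share of Gabrd was 13.1% ± 0.668 in input WT and 13.0% ± 3.35 in TRAP WT, a difference within the spread, and 14.7% without TRAP WT replicate 3. The order of Gabra3, Gabrg1 and Gabra2 was less firm. With the median transcript length in place of the longest, Gabrg1 and Gabra2 changed places in input WT and TRAP WT. In TRAP KO Gabra3 and Gabrg1 changed places, and in input KO the order stayed the same.

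The levels of 3 subunit genes were also set against those of granule cell genes. Relative to the summed level of the 10 granule cell markers, Gabra6 amounted to 8.19% ± 0.80 in input WT and 8.39% ± 0.76 in input KO, and to 6.73% ± 0.52 and 7.37% ± 1.4 in TRAP. Gabrd amounted to 1.85% ± 0.16 and 1.61% ± 0.076 in input and to 2.42% ± 0.46 and 2.46% ± 0.21 in TRAP. Gabrb2 went from 4.34% ± 0.32 and 4.35% ± 0.28 in input to 13.1% ± 3.4 and 12.5% ± 4.3 in TRAP. Without TRAP WT replicate 3, the values in TRAP WT were 7.03% for Gabra6, 2.68% for Gabrd and 11.4% for Gabrb2. In TRAP the granule cell sum was lowest in WT replicate 3 (973 CPM) and KO replicate 4 (799 CPM), and these libraries also had the lowest Gabrd levels of their groups. This was not particular to Gabrd. WT replicate 3 had the lowest level of 5 of the 7 subunit genes. KO replicate 4 had the lowest level of 4, namely Gabrd, Gabra2, Gabra3 and Gabrg1. Gabra6 was lowest in WT replicate 3 (59.7 CPM), but in KO in replicate 1 (71.7 CPM, against 74.6 CPM in replicate 4). The part of granule cell RNA in the TRAP levels of Gabra6 and Gabrd was not tested.

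**Figure D4:**
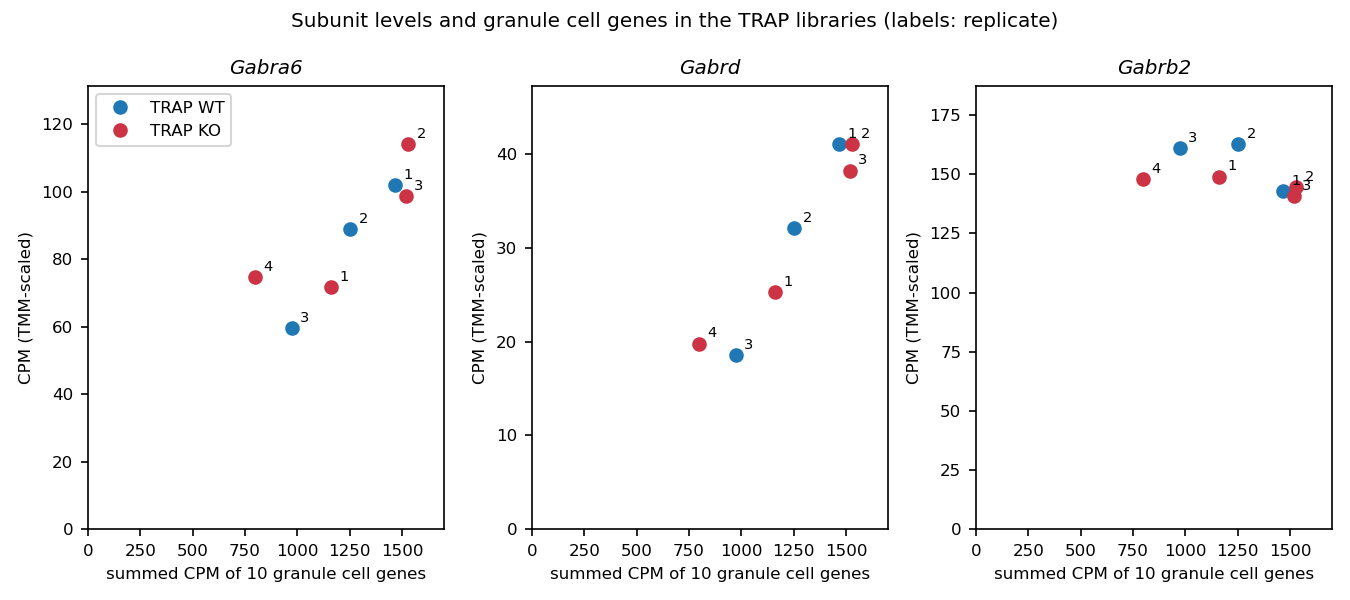
Level of Gabra6, Gabrd and Gabrb2 (vertical axes, CPM) against the summed level of 10 granule cell genes (horizontal axis, CPM) in the 7 TRAP libraries, labelled by replicate. Gabrd is lowest in the library of each genotype with the smallest granule cell sum, while Gabrb2 stays between 141 and 163 CPM. Gabra6 is lowest in WT replicate 3, but in KO in replicate 1.

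Of 9 other subunit genes of the family, 6 were abundant enough to be tested. In WT, 2 of these 6 passed the threshold as lower in TRAP and none as higher, and in KO 3 as lower and none as higher. Of all genes tested, 38.5% were lower and 37% higher in WT, and 39.6% lower and 36.3% higher in KO. Gabra4, an alpha subunit gene that shares a cluster with Gabrb1, was at 18.2, 17.6, 21 and 22.3 CPM in input WT and 19.7, 20.3 and 18.1 CPM in input KO. The TRAP levels of Gabra4 were 11.1, 13.1 and 18.2 CPM in WT and 14.2, 11.3, 11.3 and 9.74 CPM in KO. The fractions overlapped in WT, in TRAP WT replicate 3, but not in KO. Its log2 fold change was -0.47 (adjusted p = 0.0222, edgeR) in WT and -0.74 (adjusted p = 0.00132) in KO. The call in WT was lost without TRAP WT replicate 1 (-0.31) or input WT replicate 4 (-0.41). Gabrb1, whose start is 387 bases from that of Gabra4, had -2.98 and -2.79. Gabra5, Gabre, Gabrg3, Gabrr1 and Gabrr2 were below 3 CPM in every library. With library totals, 4 of the 6 were lower in each genotype and none higher, where 61.1% of all genes were lower in WT and 60.3% in KO.

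Genes that assemble, anchor or accompany these receptors moved in both directions. Of 31 such genes, all tested, 16 were higher and 11 lower in TRAP WT, and 14 higher and 11 lower in TRAP KO. Over all genes, 37% were higher and 38.5% lower in WT, and 36.3% higher and 39.6% lower in KO. With library totals, 9 were higher and 15 lower in WT, and 8 higher and 17 lower in KO, where 19.5% of all genes were higher in each genotype and 61.1% and 60.3% lower. The largest increases were Insyn1, which encodes a protein of the inhibitory postsynapse (3.18 and 2.81 on the log2 scale), Gabbr1, a GABA-B receptor subunit gene (2.38 and 2.27), and Gabarapl2, a relative of the GABA-A receptor-associated protein gene (2.10 and 2.04). The lowest values in WT were those of Shisa7, whose protein binds GABA-A receptors (-2.78 and -2.05), Slc6a11, an astrocytic GABA transporter gene (-2.46 and -1.77), and Mdga1, whose protein limits neuroligin-2 (-2.27 and -1.88). In KO Bicd1, at -1.95, was also among the lowest 3.

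By Euclidean distance of centred log2(CPM + 1) over the 14 libraries, the profile of Gabra6 was nearest to those of Grin3a (distance 0.358), S1pr1 (0.444) and Car10 (0.504). Gabrd was nearest to Epn3 (0.413), Ptn (0.460) and Shisa8 (0.477), and Gabrb2 to Suco (0.201), Hs2st1 (0.275) and B4galt6 (0.346). Gabra3 was nearest to Lrrc4, Arsk and Lrrc3b, and Gabra2 to Slc7a10, Lgi3 and Fads1. Gabrb1 was nearest to Flrt2, Snx22 and Ptprg, and Gabrg1 to Slc8a1, Magi1 and Tmem74. No 2 of the 7 genes shared one of these neighbours. The libraries share the contrast of TRAP with input, so likeness over them mostly describes that contrast.

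The second question of the design was whether loss of Astn2 changed these genes. In TRAP, none of the 7 passed the adjusted threshold, where 0.00707% of 14145 genes did, and none had an unadjusted p under 0.05, where 1.5% did (edgeR). DESeq2 called none of the 7 either. The interval was narrowest for Gabrb2, whose log2 fold change of KO against WT was -0.076 (95% interval -0.39 to 0.24), and widest for Gabra2, at 0.33 (-0.97 to 1.63). Gabra6 had 0.084 (-0.44 to 0.61), Gabrd -0.0051 (-0.71 to 0.70), Gabra3 -0.14 (-1.14 to 0.87) and Gabrb1 0.14 (-0.80 to 1.08). These intervals leave room for differences of the size they span.

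Gabrg1 differed in that each TRAP KO library was above each TRAP WT library, which 1.8% of genes showed in the same direction and 4.49% in either. The gap was small: TRAP KO replicate 4 was at 2.12 CPM (48 counts) and TRAP WT replicate 3 at 2.07 CPM (50 counts). Its log2 fold change was 0.67 ± 0.30 (95% interval -0.0073 to 1.35), with an unadjusted p of 0.0520 and an adjusted p of 1.00 by edgeR. Adjusted p ranged from 0.614 to 1.00 over the alternatives tried. The highest library, TRAP KO replicate 3, also had the highest summed Bergmann glia and astrocyte level among TRAP libraries, 642 CPM against 329 to 570 CPM in the others. That sum was 376 to 500 CPM in TRAP WT. TRAP KO replicate 4 had the lowest sum, 329 CPM, although its Gabrg1 level was above every TRAP WT library. TRAP WT replicate 3 had the lowest sum of TRAP WT, 376 CPM, and the highest Gabrg1 level of that group. Against the glial sum, Gabrg1 amounted to 0.387% ± 0.15 in TRAP WT, 0.305% without TRAP WT replicate 3, and 0.517% ± 0.10 in TRAP KO. The part of glial RNA in this difference was not tested.

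In input, none of the 7 passed the adjusted threshold, where 0.0188% of 15997 genes did, and DESeq2 called none of them. One of the 7, Gabrd, had an unadjusted p under 0.05, as did 13.7% of all genes. Gabrd was at 81.2 to 92.9 CPM in input KO and 97.5 to 110.2 CPM in input WT, with no overlap, which 4.24% of genes showed in that direction. Its log2 fold change was -0.22 ± 0.073 (95% interval -0.38 to -0.055), with an unadjusted p of 0.0148 and an adjusted p of 0.266. Adjusted p ranged from 0.0960 to 1.00 over the alternatives. The summed level of the granule cell markers was 5317 to 5556 CPM in input KO and 5373 to 5813 CPM in input WT, and Gabra6 had 0.027 (-0.19 to 0.24). Gabra2 had -0.54 (-1.13 to 0.058), with the lowest level in input KO replicate 3, and without that library the direction turned (0.14). Gabrg1 had 0.18 (-0.051 to 0.42), Gabra3 0.067 (-0.18 to 0.31), Gabrb1 -0.054 (-0.49 to 0.38) and Gabrb2 -0.063 (-0.27 to 0.15).

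**Figure D5:**
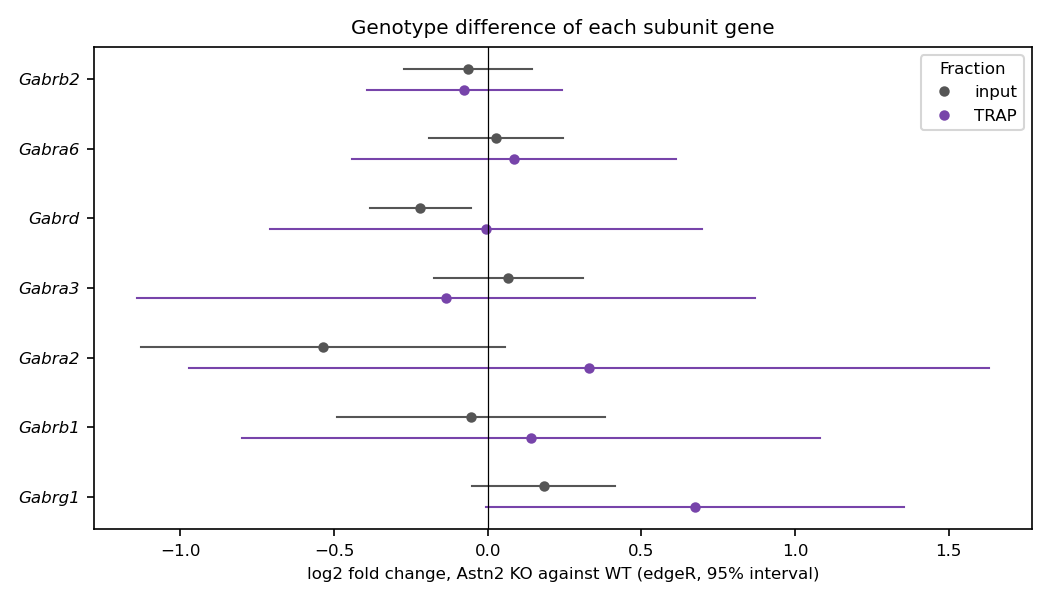
Log2 fold change of KO against WT (horizontal axis, edgeR) for each of the 7 subunit genes in input and in TRAP; points are estimates and lines 95% intervals. The intervals in input are narrower than those in TRAP, and only that of Gabrd in input does not include 0 before adjustment.

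The genotype by fraction interaction, which tests whether the change from input to TRAP differed between genotypes, was past the threshold for none of the 7 and for 0% of 16042 genes by edgeR, with 2.68% at an unadjusted p under 0.05, none of them among the 7. DESeq2 called 1 gene, which was not among the 7. The interaction was -0.066 (-0.36 to 0.23) for Gabrb2, 0.13 (-0.45 to 0.71) for Gabra6, 0.32 (-0.44 to 1.08) for Gabrd and 0.91 (-0.41 to 2.23) for Gabra2. It was 0.38 (-0.16 to 0.93) for Gabrg1, 0.19 (-0.63 to 1.01) for Gabrb1 and -0.086 (-0.998 to 0.83) for Gabra3.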

How the data were processed

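The deposited table holds estimated counts per gene as whole numbers, with Entrez gene numbers, for 14 libraries. The submitters' processing notes name Salmon 0.8.2 and the build mm10, with no role given; annotation and strand setting are not given in the sources used here. Without a stated strand setting, reads of genes that overlap on opposite strands cannot be told apart. Groups, sex and replicate numbers came from the labels. The labels do not say which libraries come from separate animals, so p-values measure the spread between these samples, which may be technical. Within a group, the chi-square per degree of freedom between library pairs was at least 8.63, so no pair was taken as 1 library. It was 159 and 267 for TRAP WT replicate 3 against replicates 1 and 2 of its group, and at most 62.8 for every other pair. TRAP WT replicate 3 thus differed from its group over the whole table. Symbols and gene positions came from the RefSeq table of GRCm38.p6, which matched 24045 of 24100 genes. Transcript lengths, strands and exons came from GENCODE M21.

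edgeR 4.0.16 in R 4.3.3 (quasi-likelihood test, two-sided, TMM factors, genes kept by filterByExpr, Benjamini-Hochberg at 0.05) compared TRAP with input in all 14 libraries and KO with WT within each fraction, with sex as a covariate. The fitting script was tested on simulated data. DESeq2 1.42.0 was an alternative. Ratios to Gabrb2 used counts plus 0.5. A floor of 3 counts corresponds to 0.0553 to 0.160 CPM, for counting error only.

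The 7 genes, the 9 other subunit genes, the 31 synapse genes and the marker lists were chosen with earlier results of these data known. Further subunit genes are not reported here. Named were the 7 genes, other subunit genes that passed the filter, up to 3 synapse genes a direction by fold change, and the 3 nearest profiles to each of the 7. Besides the lists named in the report, all 7 oligodendrocyte genes were lower in TRAP in both genotypes, as were 5 of 5 endothelial genes in WT and 3 in KO, and 2 of 3 unipolar brush cell genes in WT and 3 in KO. Alternatives were other scalings, filters, tests and covariates, the replicate number as a block, and leaving out each library in turn.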

Additional observations from a re-analysis of the deposited data

Results flagged for a closer look

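Among 26 values tested in groups of 4 libraries (levels of the 7 genes and their ratios to Gabrb2), 2 had a library far from the others of its group, and chance alone gives about 1 in 20. Both concern Gabrg1 in TRAP KO. Its level was highest in replicate 3 (3.40 CPM against 2.12 to 2.25 CPM), and the gap to the next library was 0.888 of the group's whole range, above Dixon's 95% critical value. Its ratio to Gabrb2 was also highest in replicate 3, with a gap of 0.852 of the range. Without that library the log2 fold change of KO against WT in TRAP for Gabrg1 was 0.49, and that of TRAP against input in KO was -2.19.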

How the results depend on the processing

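All 7 genes stayed lower in TRAP and past the threshold in both genotypes under each of 308 alternative values, and 101 of 102 alternative ratios to Gabrb2 kept their direction and call. Same-numbered libraries were not treated as pairs in the main tests. Between fractions, the correlations of their deviations were 0.292, 0.243 and 0.0981 in WT and 0.225, 0.225 and -0.125 in KO. With different numbers they were -0.230 to 0.181 in WT and -0.230 to 0.346 in KO. For replicates 1 and 2 of both genotypes the same-numbered value was the highest for its TRAP library, and for replicate 3 it was not. These values do not settle whether such libraries are pairs, so results with the replicate block are also given. Between genotypes in TRAP, the correlations were negative for all 3 numbers. With the replicate block, the ratio of Gabra2 to Gabrb2 was -1.35 with adjusted p = 0.0625 (exact sign permutation over 6 pairs), the 1 ratio that lost its call. The block also left 1 gene called over all genes for KO against WT in input, where 3 were called without it.

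Over all genes, DESeq2 called 1 gene for the interaction (edgeR 0), 3 for KO against WT in TRAP (edgeR 1) and 294 in input. One fit of all 14 libraries called 2 in TRAP. In input, size factors gave 5 and no filter on low counts 23. Leaving out a library gave 1 to 2 in TRAP and 1 to 158 in input, the 158 without input KO replicate 2. None of these included the 7 genes, and the cause was not tested.

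Several uncalled genotype differences of the 7 changed sign, all far from the threshold. With the block, these were Gabra3 in TRAP (0.21) and in the interaction (0.055), Gabrb1 in input (0.037) and Gabrd in TRAP (0.24). With library totals, they were the interaction of Gabra3 (0.0038) and of Gabrb2 (0.020) and Gabrd in TRAP (0.056). In one fit of all libraries, they were Gabra3 in input (-0.0012), Gabra6 in input (-0.040) and Gabrd in TRAP (0.0085), and without the sex covariate Gabra6 in input (-0.016) and Gabrd in TRAP (0.031). Leaving out 1 library gave, in TRAP, -0.35 to 0.73 for Gabra2, -0.46 to 0.27 for Gabra3, -0.080 to 0.24 for Gabra6, -0.089 to 0.48 for Gabrb1 and -0.32 to 0.22 for Gabrd. In input it gave -1.12 to 0.14 for Gabra2, -0.082 to 0.17 for Gabra6, -0.31 to 0.27 for Gabrb1 and -0.19 to 0.10 for Gabrb2. For the interaction it gave -0.49 to 0.31 for Gabra3, -0.066 to 0.29 for Gabra6, -0.079 to 0.60 for Gabrb1 and -0.15 to 0.0066 for Gabrb2.

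Among the other subunit genes, TRAP against input turned negative with library totals for the uncalled Gabra5 (-0.29 and -0.53) and for the uncalled Gabre in WT (-0.32; -0.16 with the block). Leaving out 1 library gave -0.42 to 0.83 for Gabra5 in WT, -2.61 (without TRAP WT replicate 3, adjusted p = 0.0187 by edgeR) to 0.98 for Gabre in WT and -0.68 to 0.069 for Gabre in KO. Gabra4 in WT (-0.74 to -0.31) lost its call without 2 of the 14 libraries and Gabrr1 in KO (-2.45 to -1.40) without 3.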
